A study of Homo sapiens with 3 samples.

Results

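The comparison described here is that of LvM3b colon adenocarcinoma cells made to overexpress miR-483-5p with control LvM3b cells. Total RNA of each culture was hybridised as biotinylated cRNA to 1 Illumina bead array, and another array held LvM3b cells overexpressing miR-551a. A gene entered if the array listed a symbol for it and at least 1 of its probes had a detection score above 0.99 in either array. This left 13759 of 48803 probes, which stood for 10806 of the 24989 genes with a symbol. All 3 groups were the same line, grown untreated in serum-containing medium and harvested before confluence. The strand comes from the series text, since the sample label reads only miR-483. Neither the method of overexpression nor what the control cells carried in its place is stated in the labels. Each group was 1 culture and 1 array, so no value below has a replicate error and no difference between groups was tested. What another pair of cultures would show cannot be told from these arrays.

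MicroRNAs are short RNAs that guide an Argonaute protein to target mRNAs through a seed sequence near their 5′ end, which lowers the stability and translation of those mRNAs. miR-483 is made from an intron of IGF2, the gene of insulin-like growth factor 2. LvM3b was selected from the colon cancer line LS174T for growth in mouse liver, and miR-483-5p and miR-551a are known from that model as suppressors of liver colonisation, with brain-type creatine kinase CKB as a shared target. An array of mRNA levels shows the transcripts that differ between cultures, and does not separate direct targets of a microRNA from what follows downstream or from differences between cultures.

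The median intensity over all probes was 84.9 in the control array and 88.0 in the miR-483-5p array, and 13814 and 13291 probes were detected. Of 18 markers of colon epithelial lines 16 were compared, with EPCAM at 19097.0 in the control and 22960.7 in the miR-483-5p array, while KRT20 and HNF4A were detected in neither. Of markers of other cells, 0 of 12 endothelial, 0 of 9 erythroid, 2 of 20 hepatocyte and 2 of 16 leukocyte genes were compared, with ALB, PTPRC and PECAM1 undetected. Of 15 fibroblast genes 7 were compared, most of them dim, and COL1A1, COL1A2 and DCN were undetected. The leukocyte pair were CD68 and LYZ, and LYZ is also a product of intestinal Paneth cells.

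Intensities below are the non-normalized values, which still contain background, and log2 differences and folds were computed after background correction and quantile normalization. The fold of a gene therefore differs from the plain ratio of its intensities, and for dim genes it is mostly the larger. Where only 1 array detected a probe, "at least" before the fold of a single gene gives the smallest bound over the main and the 6 other normalizations. Counts of genes or probes at 1.5-fold or 2-fold use the main difference and not this bound. Some of those counted therefore have a smaller bound. A difference is given as miR-483-5p minus control. Of the 13759 probes, 79 (0.574%) stood 2-fold or more above the control and 95 (0.69%) 2-fold or more below it. At 1.5-fold the counts were 554 probes higher (4.03%) and 610 lower (4.43%). With each gene taken as the mean of its probes, 400 genes (3.7%) lay 1.5-fold or more above the control and 439 (4.06%) as far below it. The median difference over all genes was -0.01, and 48.8% of genes were higher. The differences spread more among dim probes, with an SD over probes of 0.446 among the dimmest 3440 and 0.270 among the brightest 3440. The dimmest 3440 held 46 of the 79 higher and 52 of the 95 lower probes.

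**Figure D1:**
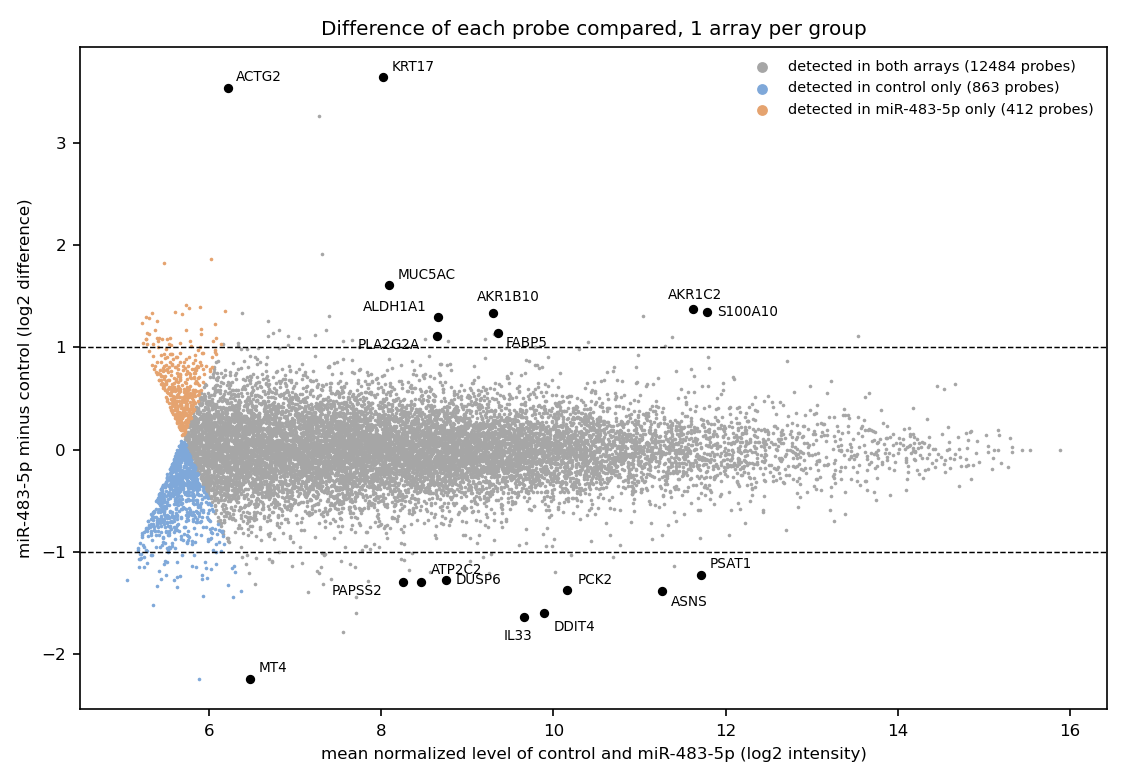
Each point is 1 of the 13759 probes compared, with its mean normalized level in both arrays (log2 intensity) on the horizontal axis and the log2 difference of miR-483-5p minus control on the vertical axis. Colours show the array that detected the probe and dashed lines mark 2-fold; KRT17 and ACTG2 stand highest and MT4 is among the lowest points, most probes lie between the lines, and the spread narrows towards bright probes.

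Probes of 1 gene give the only repeat within an array. Among genes with several probes detected in both arrays, 215 had a probe at least 1.5-fold apart, and in 162 of them (75.35%) all probes lay on the same side of 0. Among probes brighter than the median this held for 68 of 74 genes (91.89%), and at 2-fold for 5 of 5. Without a cut on the difference the shares were 60.34% of 2171 genes, and 66.81% of 958 for the brighter probes. Every probe passed 1.5-fold in only 31 of the 215 and 17 of the 74 genes, and 2-fold in 3 of the 5. The shared direction speaks for the RNA of these 2 cultures and not for the microRNA, since probes of 1 gene share the sample.

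Genes that supply amino acids were prominent on the lower side. Cells short of amino acids phosphorylate the initiation factor eIF2, which favours translation of ATF4, a transcription factor that switches on amino acid synthesis, uptake and tRNA charging, and this programme is called the integrated stress response. Over 5 lists of such genes (serine and one-carbon enzymes, asparagine, proline, cysteine and transaminase enzymes, amino acid transporters, cytosolic aminoacyl-tRNA synthetases and integrated stress response factors), 84 genes were compared, of which 61 were lower and 23 higher. At least 1.5-fold lower were 26 of them (30.95%, against 4.06% of all genes) and at least 1.5-fold higher were 2. Their median was -0.24. These lists and those below were chosen with earlier results of these data known. Their shares beside those of all genes are therefore descriptions and were not tested. In a culture measured as a whole, fewer cells expressing a gene and less of its RNA per cell cannot be told apart.

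In serine synthesis, the 3 enzymes that lead from glycolysis to serine were all lower. PHGDH, which takes the first step, read 8799.6 in the control and 5095.2 in the miR-483-5p array, a difference of -0.79. PSAT1, the aminotransferase of the second step, read 5086.8 and 2243.0 (-1.22, 2.33-fold lower). PSPH, the phosphatase that releases serine, read 607.8 and 402.0 at its brighter probe, with a mean over its probes of -0.53. The mitochondrial folate enzymes that use serine lay on the same side, with MTHFD2 at 2958.8 and 1722.3 and a mean of -0.62, and SHMT2 at 3860.3 and 2715.5, -0.59. Among the members that were higher was TYMS, which makes thymidylate for DNA synthesis, at 1576.4 and 2570.5 (0.66). In all, 9 of 13 genes were lower, 5 of them at least 1.5-fold (against 4.06% of all genes). The other 4 were higher, and the list median was -0.31.

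ASNS, which makes asparagine, had the largest difference among the bright genes of its list, with 3789.1, 1570.3 and 1706.0 in the control, miR-483-5p and miR-551a arrays. Its difference was -1.38 at this probe and -1.28 over both probes. The mitochondrial phosphoenolpyruvate carboxykinase PCK2 read 1804.8 and 766.0 (-1.37), and a dimmer probe of 284.9 and 150.9 gave -1.39, while another probe of 166.7 and 157.0 gave -0.19. GPT2, the mitochondrial alanine aminotransferase, read 1660.8 and 884.3 (-1.03). CBS, the first enzyme from homocysteine to cysteine, was detected in the control only, at 159.6, and was at least 1.40-fold lower. Other transaminases and proline enzymes lay close to 0, with GOT1 at -0.05, GOT2 at 0.01, BCAT1 at 0.04 and ALDH18A1 at 0.07. The list held 11 lower and 4 higher genes of 15 and a median of -0.26, or -0.20 for its genes detected in both arrays.

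Among transporters, SLC1A5, the main carrier of glutamine into epithelial cells, read 904.1, 493.9 and 791.4 in the control, miR-483-5p and miR-551a arrays, so that the miR-483-5p culture was low against both others. SLC6A9, a glycine carrier, read 194.0 and 127.5 (-1.06), SLC38A2, a carrier of small neutral amino acids, 2803.1 and 1829.9 (-0.72), and SLC7A1, the carrier of arginine and lysine, 2105.7 and 1478.5 (-0.59). SLC3A2, the heavy chain shared by several carriers, gave -0.74 and -0.56 at its brighter probes and 0.29 at a dim one. Its partner SLC7A5, which exchanges glutamine for leucine, was not among the lower genes, with 5964.6 and 6518.6 (0.11). The cystine carrier SLC7A11 read 166.3 and 157.3 (-0.18). Of 16 transporters 10 were lower, 5 at least 1.5-fold (against 4.06% of all genes). None was at least 1.5-fold higher, and the median was -0.20.

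Aminoacyl-tRNA synthetases, which join amino acids to their tRNAs, were lower in 15 of 20 cases with a median of -0.21. MARS1, the methionine enzyme, read 482.5 and 269.8 (-1.07), SARS1, the serine enzyme, 783.6 and 463.2 (-0.91), GARS1, the glycine enzyme, 3187.1 and 1914.2 (-0.83), and CARS1, the cysteine enzyme, 879.0 and 582.4 with a mean of -0.62. The enzymes for valine (VARS1, 0.02), histidine (HARS1, -0.01), phenylalanine (FARSB, 0.02) and alanine (AARS1, -0.09) lay near 0, and those for lysine (KARS1, 0.32) and arginine (RARS1, 0.37) were higher. The differences within the family thus ran over more than 1 log2 unit. Without 4 members that were matched by hand from older symbols, among them MARS1, SARS1 and GARS1, the median was -0.12.

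Of the regulators themselves, 16 of 20 were lower, 7 at least 1.5-fold (against 4.06% of all genes). None was at least 1.5-fold higher, and the median was -0.37. TRIB3, a pseudokinase induced by ATF4, read 1399.9 and 788.3 (-0.94), STC2, a secreted glycoprotein, 1084.7 and 623.4 (-0.93), and the peptide hormone gene ADM2 256.1 and 155.5 (-1.11). The transcription factors ATF3 (242.0 and 158.9, -0.95), CEBPB (1951.0 and 1267.5, -0.72) and DDIT3 (228.3 and 170.4, -0.67) were lower too. ATF4 itself, which is controlled mainly through translation, read 14653.7 and 11221.7 at its brightest probe (-0.39), 784.8 and 512.8 at another (-0.73) and 139.7 and 172.6 at the dimmest (0.47). The kinases EIF2AK4 and EIF2AK3, which sense amino acid shortage and misfolded proteins, lay at -0.09 and 0.03. Chaperones of the endoplasmic reticulum, the targets of the unfolded protein response, had a median of 0.03 over 18 genes, with HSPA5 at 330.6 and 337.0 (0.01) and HSP90B1 at 7046.4 and 7870.8 (0.13).

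The promoters of these genes were read for the C/EBP-ATF composite element that ATF4 binds, searched as TGATGNAAN on both strands in the RefSeq window of 250 bases before to 50 after the start (GRCh38.p14). Of 67 members of the 5 lists with a promoter there, 16 held a match (23.88%), against 146 of 7956 promoters of all genes compared (1.84%). Among the 26 genes at least 1.5-fold lower, 23 had a promoter and 5 of those a match (21.74%), so the matches were not gathered in the genes that differed most. These 5 are shown because they put the element beside the lowered genes, with the match in capitals and the strand of the gene.
ASNS (chr7:97872448-97872496, minus strand): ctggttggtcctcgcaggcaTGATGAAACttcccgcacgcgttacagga
MARS1 (chr12:57488043-57488091, plus strand): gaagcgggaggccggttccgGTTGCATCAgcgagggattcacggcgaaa
CARS1 (chr11:3057398-3057446, minus strand): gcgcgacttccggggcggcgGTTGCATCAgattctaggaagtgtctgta
SLC7A1 (chr13:29595653-29595701, minus strand): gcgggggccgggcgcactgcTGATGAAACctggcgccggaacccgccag
ATF3 (chr1:212565196-212565244, plus strand): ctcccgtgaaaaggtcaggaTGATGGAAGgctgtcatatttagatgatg
In MARS1 and CARS1 the match lay on the opposite strand within 5 bases of the start, and in ASNS it began 68 bases before it. A match is a stretch of letters and not a measured binding site, and these arrays did not measure binding.

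Some brakes of the growth kinase complex mTORC1 and of glucose uptake were lower as well. DDIT4, an inhibitor of mTORC1 that is induced by stress, read 1624.8, 605.6 and 476.3 in the control, miR-483-5p and miR-551a arrays (-1.59 for miR-483-5p). TXNIP, an arrestin that limits glucose uptake, read 791.0 and 421.9 (-1.08). TSC22D3, a glucocorticoid-induced leucine zipper protein and not itself such a brake, read 205.7 and 122.2 at the brighter of its probes (-1.31). The sestrins did not move as a family, with SESN1 at 0.08. SESN2 lay at -0.74 but was detected in the control only (115.4), with a bound of 1.01-fold in the main normalization. Of 16 genes on this list 11 were lower. By the main difference 4, SESN2 among them, lay 1.5-fold or more below the control (against 4.06% of all genes). The median was -0.27, or -0.16 with undetected sides at their bound. Growth arrest genes of FOXO and p53 had a median of -0.15 over 17, with CDKN1A, the inhibitor of cyclin-dependent kinases, at 1746.1 and 1257.6 (-0.57) and the death receptor FAS, dim at 135.9 and 202.8, at 0.90.

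Genes of cell division lay on the higher side almost without exception. Of 50 genes of mitosis and G2/M 47 were higher, 15 at least 1.5-fold (against 3.7% of all genes), and 0 at least 1.5-fold lower, with a median of 0.47. KIFC1, a kinesin that bundles spindle microtubules, read 452.8 and 918.0 (1.09), ANLN, a scaffold of the cleavage furrow, 357.6 and 689.2 (1.06), and KPNA2, an importin, 658.7 and 1301.1 (1.00). CCNA2, the S and G2 phase cyclin, read 1274.3 and 2206.0 (0.77), the anaphase activator CDC20 1560.3 and 2545.6 (0.65), and the checkpoint kinase BUB1 795.9 and 1255.2 (0.64). Tubulins, the spindle's building blocks, were part of it, with TUBB4B at 2680.5 and 4750.6 (0.80) and TUBA1B at 21188.7 and 32975.6 (0.64). Tubulins, like the histones, keratins, ribosomal proteins and HSP70 genes described here, have near-identical relatives whose transcripts may share a probe, so their single values are uncertain. The 3 exceptions were close to 0, NDC80 at -0.10, TPX2 at -0.05 and BUB1B at -0.01.

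Genes of DNA replication and G1/S were higher in 38 of 39 cases, 7 at least 1.5-fold (against 3.7% of all genes), with a median of 0.41. GINS3, a subunit of the replicative helicase, read 361.9 and 609.5 (0.84), MCM10, which activates that helicase, 474.2 and 745.1 (0.67 over both probes), and MCM7, one of its ring subunits, 3192.6 and 4932.5 (0.64 over both probes). CDC6, which loads the helicase, was detected in the miR-483-5p array only and was at least 1.34-fold higher. SLBP, the histone mRNA binding protein, stood at -0.01 and PCNA, the sliding clamp, at 5327.9 and 5497.2 for its brightest probe (0.03) with a mean of 0.33 over its 3 probes. Beside these lists, the nuclease EXO1 (479.0 and 862.5, 0.89), the origin subunit ORC6 (318.0 and 524.3, 0.83), the crosslink repair protein FANCD2 (377.9 and 640.7, 0.83) and the phosphatase CDKN3 (737.3 and 1292.2, 0.81) were among the 30 genes with the largest higher differences at a bright probe. Replication-dependent and replacement histones did not follow them, with 14 of 20 lower and a median of -0.19.

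Cell cycle promoters are known for a CCAAT box and for the cell cycle homology region, searched here as TTTGAA, on both strands and in the same window. TTTGAA was found in 27 of 41 mitosis promoters (65.85%), against 9.82% of all genes compared, and CCAAT in 31 of 41 (75.61%), against 37.75%. Both together stood in 23 of 41 (56.1%), against 4.27% of 7956. Of the 15 mitosis genes at least 1.5-fold higher 14 had a promoter and 9 of those TTTGAA (64.29%), a share close to that of the whole list. Examples with the match nearest the start in capitals, on the strand of the gene, show how near it lies to the first transcribed base, which is 65 bases on in CDC20, 55 in KIF23 and 20 in ANLN. In KIFC1 the match is on the opposite strand and lies 4 bases inside the transcript.
CDC20 (chr1:43358896-43358941, plus strand): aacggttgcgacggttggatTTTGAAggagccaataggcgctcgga
KIF23 (chr15:69414274-69414319, plus strand): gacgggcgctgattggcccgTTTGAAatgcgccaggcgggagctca
ANLN (chr7:36389822-36389867, plus strand): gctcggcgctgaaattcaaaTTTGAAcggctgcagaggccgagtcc
KIFC1 (chr6:33391807-33391852, plus strand): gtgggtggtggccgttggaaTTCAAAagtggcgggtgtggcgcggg

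Lists that serve growth lay higher by less. Nuclear import and export receptors had a median of 0.25 and were higher in 21 of 22 cases, with the importin KPNB1 at 5549.8 and 7592.6 (0.43) and RANGAP1, which drives the Ran cycle, at 1088.0 and 1688.2 (0.60). Ribosome biogenesis factors and MYC targets had a median of 0.22 with 27 of 31 higher. Only SRM, spermidine synthase (333.8 and 518.4, 0.73), passed 1.5-fold, against 3.7% of all genes on the higher side. MYC itself read 5043.3 and 4114.5 at its brighter probe, with a mean of -0.23. Nucleotide synthesis had a median of 0.21 with 18 of 21 higher, among them TYMS given above and the ribonucleotide reductase subunits RRM2 (355.4 and 504.7, 0.58) and RRM1 (3223.3 and 4472.7, 0.41). Splicing factors (median 0.10, 26 of 38 higher) and mitochondrial ribosomal proteins (0.12, 42 of 56 higher) held no gene at 1.5-fold in either direction. Of all genes 3.7% were that far higher and 4.06% that far lower. Ribosomal proteins of the cytosol lay on the lower side, with 55 of 77 lower and a median of -0.10. The family included RPL31 at 5564.9 and 3188.5 (-0.84) and RPS7 at 480.8 and 769.7 for its brighter probe (0.65 over both).

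Heat shock genes, which also respond to how cells are handled before lysis, were higher in 21 of 22 cases with a median of 0.40. Of these 3 passed 1.5-fold (against 3.7% of all genes). The inducible HSP70 gene HSPA1B read 3108.0 and 5052.5 (0.66), the co-chaperones FKBP4 439.4 and 665.9 (0.63) and AHSA1 744.4 and 1145.9 (0.59), and HSP90AA1 19881.2 and 29105.2 at its brightest probe, with a mean of 0.40. The constitutive HSPA8 read 12325.9 and 16131.4 with a mean of 0.47. Subunits of the chaperonin that folds actin and tubulin had a median of 0.21 with 9 of 12 higher, led by TCP1 (0.56) and CCT2 (0.51). The heat shock element, searched as GAANNTTC, stood in 7 of 20 heat shock promoters (35.0%) against 4.49% of all genes compared. It lay 105 bases before the start in HSPA1B and 50 bases before it in HSPA8, shown on the strand of the gene with the match in capitals.
HSPA1B (chr6:31827613-31827660, plus strand): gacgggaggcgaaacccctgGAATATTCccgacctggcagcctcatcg
HSPA8 (chr11:123062159-123062206, minus strand): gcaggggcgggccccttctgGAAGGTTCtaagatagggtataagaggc
How long each culture waited before lysis is not given, and the part of handling in these differences was not tested.

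**Figure D2:**
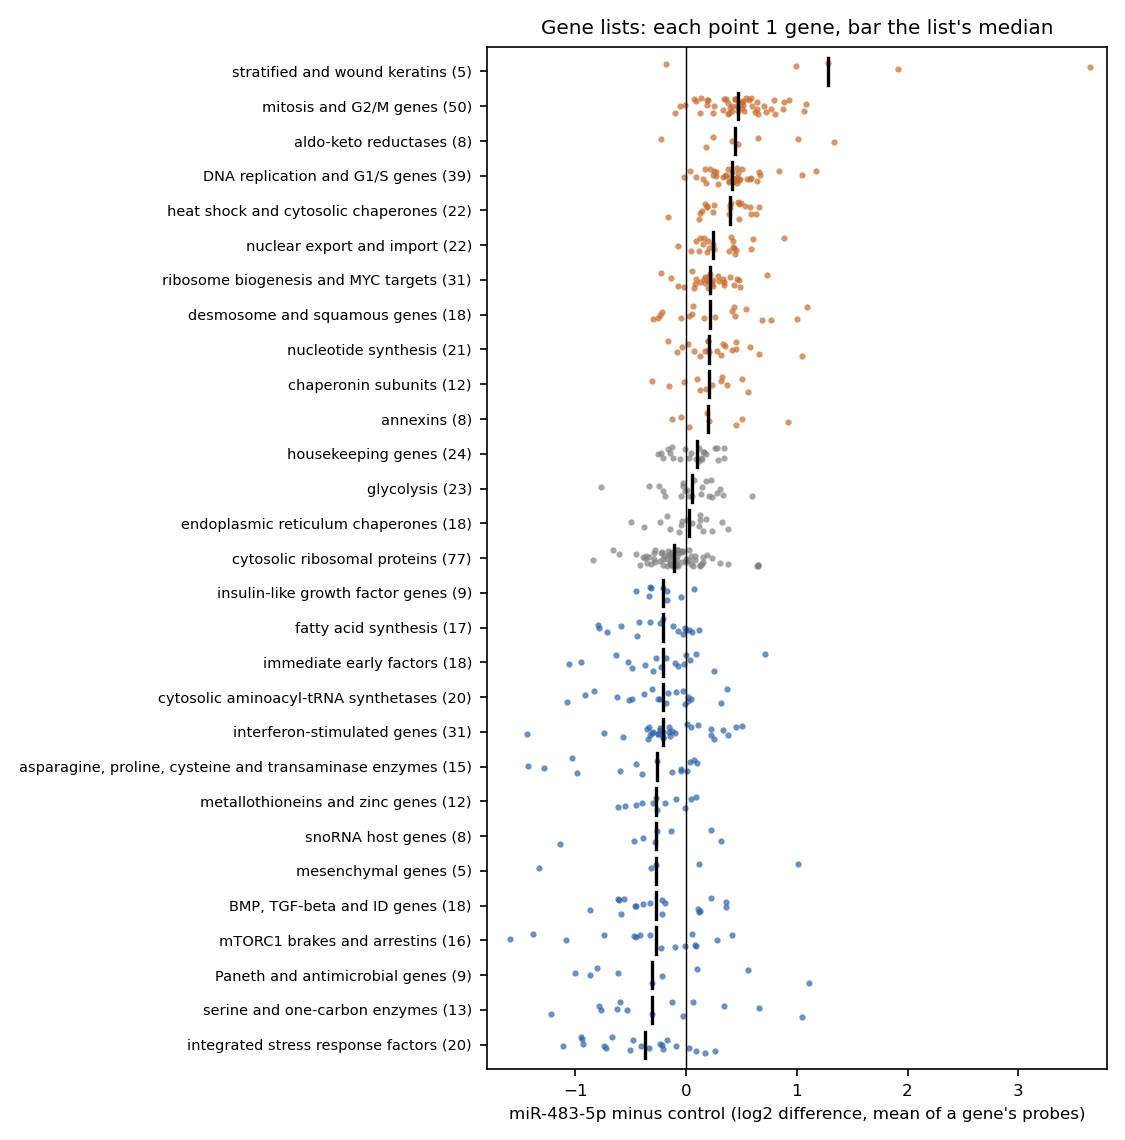
Points are genes (mean over their probes), placed by the log2 difference of miR-483-5p minus control on the horizontal axis, in the 25 lists whose median lay at least 0.2 from 0 and in 4 lists near 0 shown in grey, with the number of genes compared in brackets. Bars are medians, running from 1.29 for 5 wound keratins, the value of KRT16, which the control array did not detect (0.99 with undetected sides at their bound), to -0.37 for integrated stress response factors; cell division lists lie almost wholly right of 0, while the lists on the left also hold genes right of 0.

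Keratins and muscle-type cytoskeletal genes made up the largest single differences. KRT17, a keratin of basal and wounded epithelium, read 134.7, 982.5 and 2621.7 in the control, miR-483-5p and miR-551a arrays, a difference of 3.64 for miR-483-5p (12.5-fold), or 2.82 in the normalization that compressed it most. KRT6B, another wound keratin, read 142.3 and 367.5 (1.91), and KRT16, its usual partner, was detected in the miR-483-5p array only, at 124.6, and at least 1.09-fold higher. KRT5, KRT6A and KRT14 were detected in neither array. Simple keratins of gut epithelium were higher by less, KRT8 at 1233.1 and 2117.9 (0.76), KRT19 at 1888.9 and 2532.8 (0.36) and KRT18 at 177.6 and 210.7 for its brighter probe. Among desmosomal and squamous genes 13 of 18 were higher with a median of 0.21, and genes that passed 1.5-fold included TRIM29 (166.4 and 325.3 at the brighter probe), EMP1 (210.7 and 362.2, 1.00) and the kallikrein KLK10 (166.0 and 244.2, 0.76), all of them dim. The p53 effector PERP, a desmosome-associated membrane protein, read 743.3, 1394.9 and 1093.9 in the control, miR-483-5p and miR-551a arrays.

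Of smooth muscle type genes, TAGLN, an actin-binding protein, read 110.9 and 542.0, a log2 difference of 3.26, or 2.24 in the normalization that compressed it most. ACTG2, the enteric smooth muscle actin, read 71.4, 315.0 and 777.3 in the control, miR-483-5p and miR-551a arrays, was undetected in the control, and was at least 2.76-fold higher for miR-483-5p (5.11-fold in the main normalization). MYL9, a myosin light chain, was detected in the miR-483-5p array only (146.5) and at least 1.28-fold higher. Other members of that programme lay the other way or near 0: ACTA2, the aortic smooth muscle actin, at 405.1 and 287.2 (-0.67), CALD1, caldesmon, at 2258.6 and 1677.0 (a mean of -0.48), and TPM2, a tropomyosin, at -0.20. Over all 25 actin cytoskeleton genes and targets of serum response factor the median was -0.03, with 12 higher and 13 lower, so a handful of genes carried the difference. CNN1 and FLNA were undetected, and of 7 fibroblast markers compared 4 were higher, among them LUM (141.1, detected in the miR-483-5p array only), and 3 lower, among them FAP. The part of other cells in these differences was not tested. The calcium-binding protein S100A10 read 2168.3 and 5639.6 (1.35), while its partner ANXA2 read 10382.0 and 11629.1 at its brightest probe, with a mean of 0.45, and ANXA1 read 1458.2 and 2840.6 (0.92). S100P lay the other way, at 12387.1 and 7744.4 (-0.70).

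Aldo-keto reductases, enzymes that reduce aldehydes and ketones, were higher in 7 of 8 cases with a median of 0.44. AKR1C2 read 1904.4 and 5079.3 (1.37) and AKR1B10 446.4, 1066.7 and 855.5 in the control, miR-483-5p and miR-551a arrays. AKR1C4 read 1732.8 and 3653.7 (1.01), AKR1C3 2479.2 and 3588.5 (0.47) and AKR1B1 1208.5 and 1648.6 (0.41). Members of the AKR1C group are near-identical in sequence and a probe of one may bind transcripts of another, and a second AKR1C2 probe of 119.7 and 119.4 gave -0.07. Several of them are targets of the antioxidant factor NRF2, whose wider list was higher in 18 of 24 cases with a median of 0.19. That list held 1 gene at least 1.5-fold higher, which is near the share of all genes (3.7%). That gene was FTH1, the ferritin heavy chain (2056.1 and 3666.5, 0.77), and the probe of its pseudogene FTH1P12 read 4958.5 and 8999.1 (0.87), which cannot be told apart from the parent gene here. GCLM (-0.03), SRXN1 (-0.01) and SLC7A11 (-0.18), which NRF2 also controls, did not lie higher. Of retinoid and lipid handlers, the retinal dehydrogenase ALDH1A1 read 475.5 and 997.3 at its brighter probe, the fatty acid binding protein FABP5 1774.6 and 3982.2, and the secreted phospholipase PLA2G2A 329.2 and 651.6. In the same list the peroxisomal oxidase ACOX2 (943.9 and 463.3, -1.21) and PDK4, which holds back pyruvate oxidation (471.3 and 286.7, -0.92), were lower, and the list's median was -0.04.

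Among secretory genes of the gut lining, the gastric-type mucin MUC5AC read 215.7 and 536.7 (1.61), the goblet cell inhibitor SPINK4 917.9 and 1854.1 (0.99), and the membrane mucin MUC20 was detected in the miR-483-5p array only and at least 1.63-fold higher. The intestinal mucin MUC2 read 182.4 and 150.7 (-0.48) and AGR2, which helps to fold mucins, 280.2 and 208.7 (-0.62), so the mucin list was divided, with 9 of 17 higher and a median of 0.05. Paneth and antimicrobial genes were lower in 6 of 9 cases, with the protease inhibitor PI3 at 280.9 and 175.1 (-1.01), the immunoglobulin receptor PIGR at 410.7 and 261.8 (-0.87) and the defensin DEFA6 at 296.7 and 201.5 (-0.81). PLA2G2A and lysozyme LYZ stood on the other side. Of genes of intestinal identity, the surface antigen GPA33 read 1545.7 and 746.7 (-1.19), the cadherin CDH17 5824.0 and 4387.0 (-0.44) and the homeobox factor CDX2 1085.0 and 866.7 (-0.41), while CDX1 read 1729.4 and 1995.1 (0.12) and the carcinoembryonic antigens CEACAM5 (0.59) and CEACAM6 (0.52) were higher.

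In the WNT pathway, which keeps intestinal stem cells dividing, OLFM4, a stem cell marker, read 1489.9 and 2676.7 (0.81). The secreted inhibitors DKK1 (113.3 and 195.5, 1.34, or 0.74 in the normalization that compressed it most) and NOTUM (at least 1.57-fold, detected in the miR-483-5p array only) were higher but dim. AXIN2, the usual readout of the pathway, read 3385.4 and 2839.8 (-0.35), LGR5 212.0 and 205.0 (-0.10), and the list had a median of 0.06, so these genes did not move as 1 group.

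Receptor signalling genes differed in separate ways. DUSP6, the phosphatase that ERK induces against itself, read 698.2, 337.9 and 518.6 in the control, miR-483-5p and miR-551a arrays, and its second probe read 214.8, 135.8 and 142.2. The ETS factors ETV5 (738.4 and 449.3, -0.86) and ETV4 (578.6 and 355.6 at the brighter probe, a mean of -0.76), which ERK also induces, lay with it, but DUSP5 (0.04), the Sprouty genes SPRY1 (-0.12), SPRY2 (-0.27) and SPRY4 (-0.25), PHLDA1 (0.48) and the dim DUSP4 (111.5 and 150.6, 0.79) did not lie as low. The list had 15 genes higher and 14 lower and a median of 0.04, which was -0.12 for genes detected in both arrays. Immediate early factors, a fast response to growth factors and also to handling, had a median of -0.20 with 13 of 18 lower, EGR1 at 2313.3 and 1207.7 (-1.05) and FOS at 3467.5 and 2413.6 (-0.63). BMP, TGF-beta and ID genes had a median of -0.27 with 12 of 18 lower and 4 at least 1.5-fold (against 4.06% of all genes). ID3, an inhibitor of differentiation factors and a direct BMP target, read 4398.5 and 2507.6 (-0.86), its relative ID1 866.2 and 465.7 (-1.05) at 1 probe and 261.1 and 243.8 (-0.18) at the other, and BAMBI, a decoy receptor, 582.4 and 419.6 (-0.60). The ligands BMP4 (0.11) and BMP7 (0.13) lay slightly higher. Of receptor tyrosine kinases only KIT, the stem cell factor receptor, passed 1.5-fold, at 528.6 and 276.5 for its brighter probe. That mark was passed by 3.7% of all genes on the higher and 4.06% on the lower side, so 1 of 17 lies near these shares. The median of the 17 receptors was -0.02. The alarmin IL33 had the largest lower difference of all bright probes, with 1418.4, 517.5 and 626.4 in the control, miR-483-5p and miR-551a arrays.

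Further lists lay lower by smaller amounts. Metallothioneins and zinc genes were lower in 10 of 12 cases with a median of -0.27, MT1F at 3226.1 and 2239.7 (-0.61) and MT1G at 10081.5 and 7730.9 (-0.39), and MT2A at 6142.2 and 6151.1 (-0.01). Metallothionein genes are alike in sequence and their probes may not be specific. MT4, detected in the control only at 250.6, was at least 2.19-fold lower (3.58-fold in the main normalization). Fatty acid synthesis had a median of -0.20 with 13 of 17 lower. Among these were ACSS2, which makes acetyl-CoA from acetate, at 3216.9 and 2063.7 (a mean of -0.79), and the desaturase SCD at 11295.0 and 7741.0 (-0.59). Cholesterol synthesis (median -0.16, 17 of 23 lower) held no gene at 1.5-fold. Of all genes 4.06% were that far lower and 3.7% that far higher. Interferon-stimulated genes had a median of -0.21 (-0.15 with undetected sides at their bound) with 21 of 31 lower. ISG15, a ubiquitin-like protein (392.8 and 190.1, -1.44), and the exonuclease ISG20 (318.0 and 219.2, -0.74) stood well below the rest, and MX1 (0.26) lay higher. Genes that host small nucleolar RNAs had a median of -0.27 over 8, led by EPB41L4A-AS1 (3834.5 and 1902.0, -1.14).

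The transcripts reported as targets of miR-483-5p were not lower as a group. Of 10 on the list, 7 were compared, with a median of -0.02. None differed by 1.5-fold, a mark that 3.7% of all genes passed on the higher and 4.06% on the lower side. None of 7 therefore lies near the share of all genes. The lowest was CKB, the creatine kinase that phosphorylates creatine in the cytosol, with 510.5, 377.2 and 356.9 in the control, miR-483-5p and miR-551a arrays, a difference of -0.54. CKB is known as a target from this same cell model, so its value here is no independent support for that. MAPK3, which encodes the kinase ERK1, read 838.5, 611.9 and 658.5, with -0.56 and -0.50 at its probes. The cell adhesion molecule ALCAM read 2717.1 and 2753.9 (-0.02), serum response factor SRF 523.5 and 528.7 (-0.01), the GTPase regulator ARHGDIA 742.0 and 828.8 (0.11) and the mitochondrial fission protein FIS1 314.7 and 354.8 (0.19). TIMP2, a metalloproteinase inhibitor, was detected in the control only, at 111.4 against 110.8, and SOCS3, IGF1 and MATN3 were undetected. CKB stood alone in its own list: the other creatine and adenylate kinases compared ran from AK3 at -0.16 to GAMT, which makes creatine, at 0.26, with the mitochondrial kinases CKMT1A at 0.05 and CKMT1B at 0.18, and the creatine carrier SLC6A8, at 114.5 and 117.6, gave 0.01. Of reported targets of the partner strand miR-483-3p, CTNNB1 (0.04) and SMAD4 (-0.24) were compared, and CDC25A, which starts S phase, was higher at 261.7 and 414.2 (0.78). Of insulin-like growth factor genes 8 of 9 were lower with a median of -0.20 and none at 1.5-fold, IRS1 the lowest (204.2 and 168.9, -0.45). IGF2, the host gene, was undetected.

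The machinery that makes and uses microRNAs had a median of 0.09 over 18 genes. None passed 1.5-fold, as did only 3.7% of all genes on the higher and 4.06% on the lower side. DROSHA, the nuclear enzyme that cuts microRNA precursors, was highest, at 640.6, 926.1 and 746.3 in the control, miR-483-5p and miR-551a arrays. AGO2, the Argonaute that cuts targets, read 544.7 and 674.6 (0.31), and DICER1 gave 0.58 at one probe and -0.32 at the other.

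Because both overexpressing arrays were set against the same control array, differences from control that they have in common cannot be told apart from a peculiarity of that control culture, and no likeness between them is given. The genes in which the miR-483-5p array stood apart from both others do not rest on the control array alone. They were picked for that distance, and both differences use the same single miR-483-5p array. A peculiarity of the miR-483-5p culture therefore cannot be told apart from the microRNA in them. Lowest against both was CCN2, a matrix protein and target of YAP and TGF-beta, at 679.3, 458.9 and 928.9 in the control, miR-483-5p and miR-551a arrays, and its second probe read 433.5, 339.3 and 571.2. SRSF10, a splicing factor, read 401.6, 262.9 and 401.1, but its second probe read 238.0, 239.6 and 313.0. SLC1A5 and DUSP6, given above, followed. The second DUSP6 probe, also given above, read nearly alike in the miR-483-5p and miR-551a arrays. The sialyltransferase ST3GAL1 read 460.2, 281.3 and 416.4. PLAC8, a small cysteine-rich protein, read 3514.6, 2618.2 and 4150.6. YY1, a zinc finger transcription factor, read 653.7, 474.9 and 667.8, and CCNH, the cyclin of the kinase that activates cell cycle kinases, 672.1, 492.9 and 735.9. In each of these, the other SRSF10 probe aside, the miR-483-5p array was the lowest of the 3, and in CCN2 the miR-551a array stood 0.34 above the control after normalization.

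On the higher side LYZ, which digests bacterial walls, was first, at 476.6, 733.1 and 469.5, and its second probe read 307.7, 413.8 and 318.6. HPGD, which inactivates prostaglandins, read 258.4, 351.2 and 281.3, MLPH, a melanophilin, 937.8, 1305.5 and 985.6, and UGDH, which makes UDP-glucuronate, 2423.7, 3758.6 and 2939.8. The proteasome subunit PSMB7 read 3482.0, 4877.6 and 3716.3. The smaller of each gene's differences from the other arrays ran from 0.41 to 0.65 on the higher side and from -0.45 to -0.70 on the lower side over the 15 genes named each way, so all were under 2-fold against at least 1 of the other arrays.

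**Figure D3:**
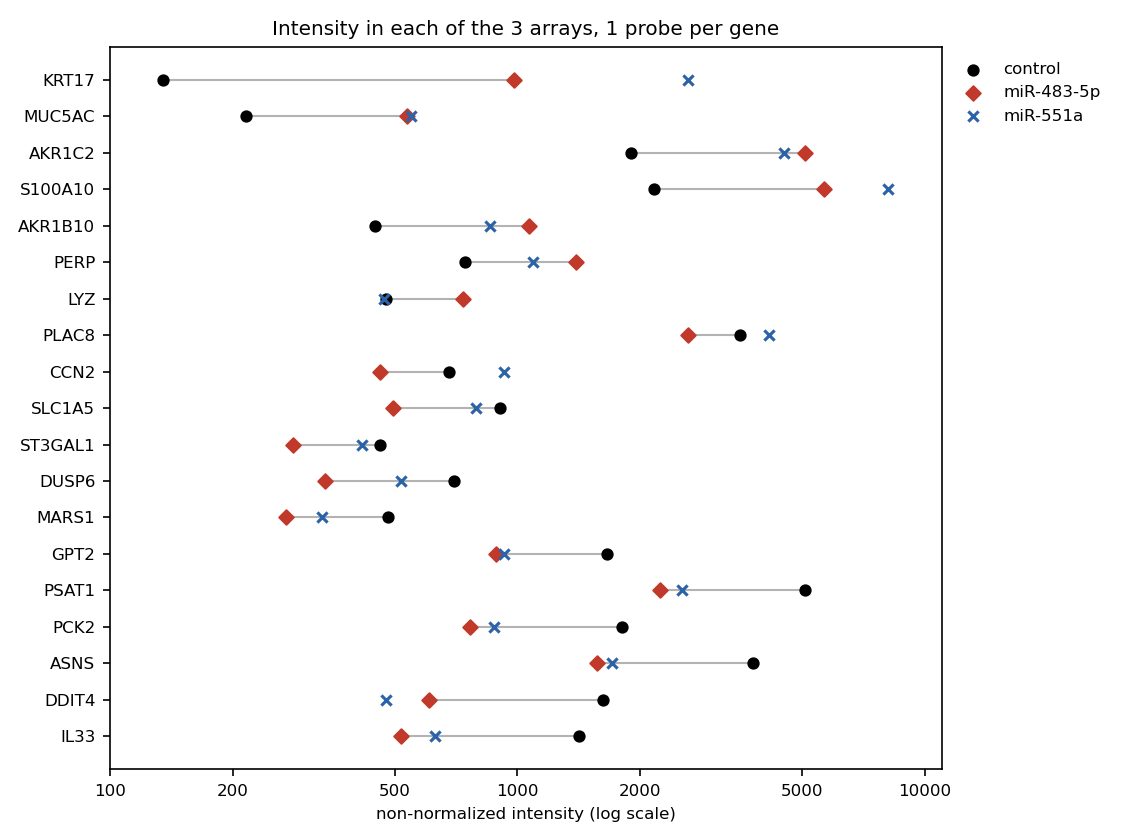
Non-normalized intensity (log scale) of 19 named genes in the control (black circle), miR-483-5p (red diamond) and miR-551a (blue cross) arrays, 1 probe per gene, with a line from control to miR-483-5p. KRT17 spans 134.7 to 982.5 and ASNS 3789.1 to 1570.3; for LYZ, PERP, CCN2, SLC1A5, ST3GAL1, DUSP6 and PLAC8 the miR-483-5p reading lies apart from both others.

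Where only 1 of the arrays detected a probe, a difference is a bound. Of the 79 probes at least 2-fold higher, 37 were detected in both arrays and 42 in the miR-483-5p array only, and of those 42 a bound reached 2-fold in the main normalization for 5. Of the 95 lower, 49 were detected in both and 46 in the control only, with such a bound for 8. Besides ACTG2, MUC20 and NOTUM, RPS26 was among the 5 (at least 1.45-fold higher over all normalizations), but its bright probe of 6726.9 and 7209.4 gave 0.06. On the lower side were the kinase WNK4, which controls salt transport (at least 1.68-fold), the phosphodiesterase PDE9A (at least 1.64-fold), the Golgi subunit COG5 (at least 1.56-fold), the fibroblast protease FAP (at least 1.54-fold) and the metalloproteinase MMP11 (at least 1.52-fold), each at an intensity of 174.2 to 192.2 in the control and undetected in the miR-483-5p array. A second PDE9A probe, also detected in only 1 of the arrays, had a bound of 1.0-fold in the main normalization. The detection threshold itself falls among such dim probes. The 149 probes just inside it had a median difference of -0.12 and the 646 just outside it one of 0.04.

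Central metabolism lay near 0. Glycolysis had a median of 0.05 over 23 genes, the tricarboxylic acid cycle 0.06 over 22, respiratory complex I -0.04 over 30 and complexes II to V 0.05 over 38. The only genes at 1.5-fold were the aldolase ALDOC (1279.2 and 805.3, -0.77), the ATP synthase subunit gene ATP5MC3 (209.7 and 292.1, 0.62) and PDK1. That mark was passed by 3.7% of all genes on the higher and 4.06% on the lower side. PDK1 was detected in the miR-483-5p array only and was at least 1.10-fold higher. Hypoxia-inducible genes had a median of -0.12 with DDIT4 the lowest, VEGFA at 369.3 and 295.6 for its brighter probe (-0.43) and CA9 at 0.12. Highest by the main difference was HILPDA, detected in the miR-483-5p array only and at least 1.42-fold higher. Proteasome subunits (0.11 over 35), translation factors (-0.02 over 45) and 24 housekeeping genes (0.10) gave the scale of lists with no marked difference, the last with extremes of -0.26 for VCP and 0.35 for POLR2A.

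Of 66 lists with at least 5 genes compared, 25 had a median at least 0.2 from 0, 11 higher and 14 lower. The medians of 9 of them stayed past 0.2 in the same direction under all the other normalizations and filters that gave a value, which were 9 for wound keratins and 11 for each other list. These were mitosis, DNA replication, heat shock, nucleotide synthesis, aldo-keto reductases and wound keratins on the higher side (the last down to 0.26 in 1 setting), and integrated stress response factors, serine enzymes and BMP, TGF-beta and ID genes on the lower.

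**Figure D4:**
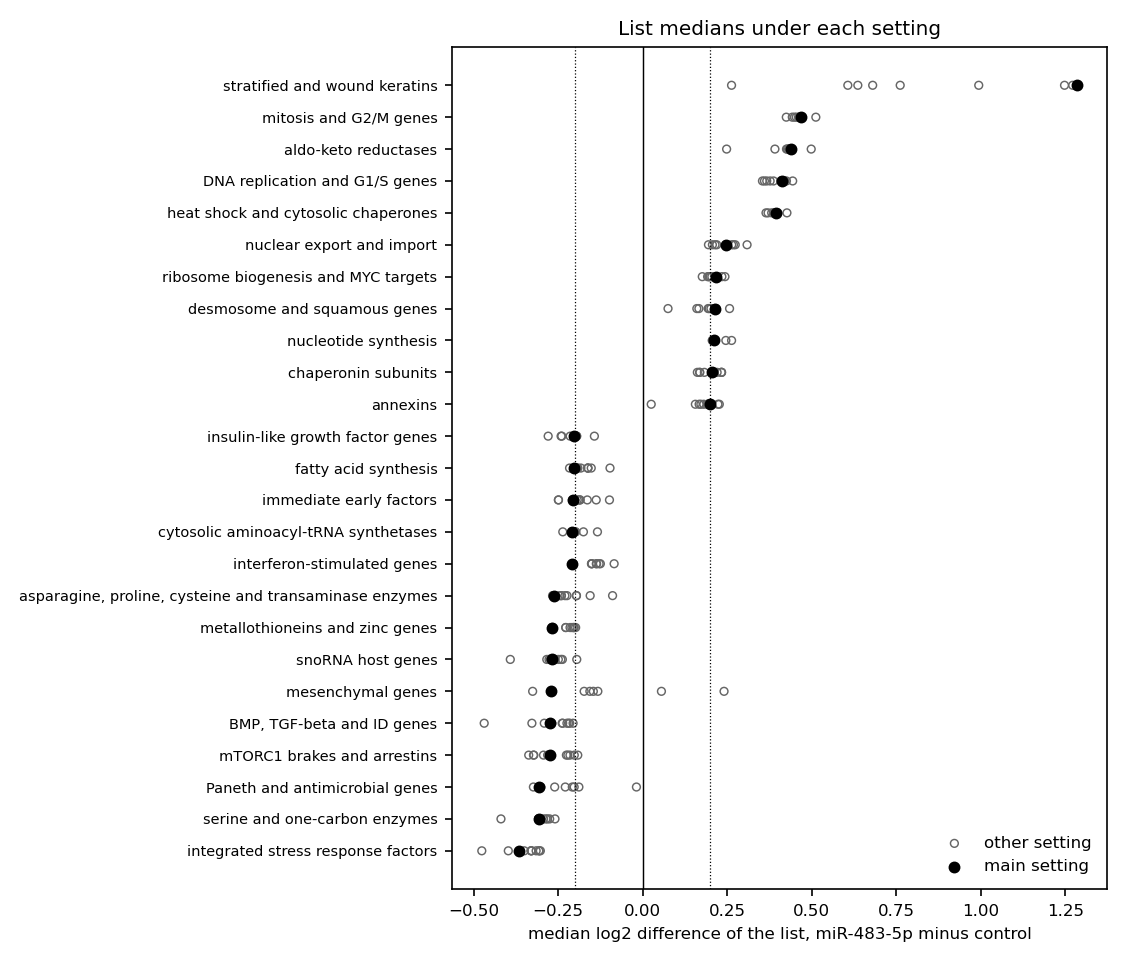
Median log2 difference of miR-483-5p minus control (horizontal axis) of the 25 lists at or past 0.2, with the main setting as a filled point and each other planned normalization or filter as an open circle; dotted lines mark 0.2 on either side. Mitosis stays between 0.42 and 0.51 and integrated stress response factors between -0.48 and -0.30, while mesenchymal genes, of which 5 were compared, cross 0.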

How the data were processed

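Illumina bead arrays measured the RNA of 3 cultures, each on its own array. The authors deposited non-normalized intensity values of 48803 probes per array with a detection score, a fraction from 0 to 1, per the file headers. The labels do not name the scanner software. The deposited normalized intensity table and the series matrix were not used, because their miR-483 column equals 0.934 times the non-normalized miR-551a column at every probe.

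Background correction and quantile normalization of the 3 arrays used neqc of limma 3.58.1 in R 4.3.3 (offset 16, background from the detection scores), and log2 differences were computed from the result. Probes with a symbol and a score above 0.99 in either array were compared, and a gene's value is the mean of its probes. For a probe undetected in 1 array, that value was raised to the lowest detected level of that array, which gives a bound. For such a gene "at least" is the smallest bound over all normalizations run, while counts at 1.5-fold and 2-fold use the main difference. Of 25200 symbols, 15712 were current in RefSeq, 3021 matched 1 gene by an older symbol, 13 were matched by hand after the data had been seen and 6454 were kept as listed. Promoters were those of RefSeq (GRCh38.p14), and 7956 genes compared had one.

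A group of 1 array allows no test, p-value or SD between arrays, and the number of arrays limits the precision. Differences were described at 2-fold and 1.5-fold, and lists by counts and medians beside those of all genes. The members and lists were chosen with earlier results of these data known. Named genes were the 30 largest differences each way among probes detected in both arrays and brighter than the median, the 12 largest bounds each way, the 15 each way that stood furthest from both other arrays, list members at 1.5-fold or otherwise the 2 largest of a list, and all targets, creatine kinases and IGF genes. Further members are named to show the range of a list, and the text gives part of those the rule names. The alternatives were other background corrections, normalizations, detection filters and probe choices. The procedure was tested on simulated data. Values of some genes are not reported here.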

Additional observations from a re-analysis of the deposited data

How the results depend on the processing

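No paired analysis was possible because each group held 1 array, all with the same replicate number, and no array could be left out for the same reason. The main counts of 79 probes higher and 95 lower at 2-fold fell to 15 and 19 without background correction, 16 and 18 with median scaling without it, 17 and 21 with normexp and an offset of 50, and 20 and 25 with neqc and an offset of 50, since less background removed compresses the folds of dim probes. They were 37 and 49 for probes detected in both arrays and 18 and 21 for probes brighter than the median. The other settings gave at most 92 higher and 94 to 100 lower, and the share that was higher, 45.4% in the main setting, ran from 42.2% to 47.9%. No scaling moved the median of all probes by more than 0.1. All 109 named probes and all 150 list members at 1.5-fold kept their direction in the 6 other normalizations, but folds of dim ones shrank, KRT17 from 3.64 to 2.82, TAGLN from 3.26 to 2.24, KRT6B from 1.91 to 1.32 and DKK1 from 1.34 to 0.74. Of the 25 shifted lists 24 kept their direction in every planned setting. Mesenchymal genes (-0.27 in the main setting) reversed to 0.24 with a detection score above 0.95 and to 0.055 without a detection filter. Fatty acid synthesis, interferon-stimulated genes, immediate early factors and annexins fell short of 0.2 in most settings. In an alternative added after the data were seen, leaving out the symbols matched by hand brought the synthetase median from -0.21 to -0.12 and moved the actin list from -0.03 to 0.01. In another added then, with undetected sides at their bound, interferon-stimulated genes moved to -0.15 and mTORC1 brakes to -0.16. The cause of these changes was otherwise not tested.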

Other observations

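HOXB5, a homeobox gene of the body axis, was among the bright genes that were lower. It read 495.7, 274.3 and 322.1 in the control, miR-483-5p and miR-551a arrays. The other HOX genes were looked at after its value was seen. HOXB8 read 397.3, 165.0 and 197.3, a difference of -1.78 for miR-483-5p. HOXB7 read 567.6, 427.9 and 468.9 (-0.52), and both HOXB6 probes, of 183.7 and 114.1 in the control, lay lower at -0.20 and -0.56, the second detected in the control only. All 4 HOXB genes compared were thus lower, with a median of -0.80. Of 6 HOXA genes 5 were lower with a median of -0.17, HOXA9 at 2016.5 and 1752.8 (-0.28) and HOXA13 at 500.5 and 502.0 (-0.03). The 2 HOXD genes compared, HOXD12 (0.20) and HOXD13 (0.23), were dim and higher, and no HOXC gene was detected. These genes were picked for their values, and they were not tested.

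Several genes with large differences stood apart from their list or belonged to none. ATP2C2, a calcium and manganese pump of the secretory pathway, read 592.0 in the control and 286.9 in the miR-483-5p array (-1.30), and PAPSS2, which makes the sulfate donor for sulfation, 523.8 and 256.8 (-1.30). They were the lowest of the lists of ion channels and pumps (median 0.03 over 20 genes) and of glutathione transferases and glucuronidation (-0.03 over 19). CYP2J2, an epoxygenase of fatty acids, read 1334.3 and 753.8 (-0.94), and RGMB, a BMP co-receptor, 2358.5 and 1324.7 (-0.93), and neither was in a list. On the higher side and in no list were TTF2, a transcription termination factor, at 365.4 and 614.5 (0.84), and POLR3K, an RNA polymerase III subunit, at 297.5 and 502.7 (0.87). Of the 76 genes with a probe at least 2-fold higher 43 were in no list and named by no rule, as were 53 of the 89 with one at least 2-fold lower.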
